A study of Drosophila melanogaster with 58 samples.

Results

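The 4 arrays described here compare Drosophila embryos that lack functional gcm with wild-type embryos, both at embryonic stage 13, and were taken by their titles from the 58 arrays of a time course. Each array is a 2-colour hybridisation of polyA RNA from whole embryos, with the mutant in one channel and the wild type in the other. The mutant embryos were homozygous for the allele gcmN7-4. They came from a stock balanced with Kr-GFP and were picked by an automatic embryo sorter for the absence of green fluorescence. The wild type was OregonR and went through the same handling. Mutant RNA carried Cy3 on replicates 1 and 2 and Cy5 on replicates 3 and 4. The study's design text speaks of independent experiments at each stage, and nothing further ties an array to an egg collection. The p-values below rest on the spread between arrays within groups, pooled over all 58 arrays. They do not measure the spread of these 4 arrays alone. A pair of further groups serves for comparison. The first is the same mutant at stages 10, 11, 12, 14 and 16, with 4 or 5 arrays each and a Ubi-GFP balancer from stage 14 on. The second is ectopic gcm at stage 13 on 4 arrays, from a cross of UAS-gcm stock B5446 to the Gal4 line MZ1060 set against a pool of the parental lines.

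The gene gcm (glial cells missing) encodes a DNA-binding transcription factor that sets the fate of nearly all lateral glia of the fly embryo. Without it, cells that would become glia take on neuronal features. Together with its neighbour and paralogue gcm2 it is also needed for the macrophage-like blood cells of the embryo, the plasmatocytes, whereas crystal cells, the other embryonic blood cell type, carry the melanising enzymes. The gcm transcript is short-lived and most of it is made well before stage 13, a stage that follows germ band retraction and at which dorsal closure begins.

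Values are log2 ratios of mutant over wild type, so that -1 is a halving in the mutant, and each array was centred on its own median. A probe was called when its adjusted p in a fit over all arrays was under 0.05. The arrays differed in quality. They measured 21604, 22370, 18307 and 22087 of 23808 probes on replicates 1 to 4, and the 2 spots of a probe correlated with a Spearman coefficient between 0.32 and 0.57. Pairs of arrays shared little of their order across probes, with Spearman correlations from 0.04 to 0.29 between the turned ratios. Replicate 4 stood apart in size. Over the 1394 called genes measured on all 4 arrays its median distance from 0 was 0.63, against 1.11 to 1.23 on the other 3, and it was the array nearest to 0 for 742 of them. Before centring, the array medians of Cy5 over Cy3 ranged from -1.96 to 0.64. Leaving the arrays uncentred moved the median fitted value of all probes from -0.03 to 0.46. Turned to mutant over wild type, replicates 1, 2 and 4 then lay higher and replicate 3 lower. Every direction below is thus relative to the bulk of the probes on its array.

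The targeted gene itself was below 0 on every array without passing the test. The gcm probe, on the left arm of chromosome 2, read -0.13, -1.35, -0.93 and -0.11 on replicates 1 to 4, with a fitted value of -0.63 ± 0.29 (SE, adjusted p = 0.181). All 4 arrays lay on the low side, and replicates 1 and 4 lay close to 0. At the other mutant stages the same probe read -1.44, -1.32, -0.29, -1.01 and -1.02, and it was called lower at 4 of these 5, the exception being stage 12. Where the gcm probe lies with respect to the gcmN7-4 lesion was not known here.

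The paralogue gcm2 was called lower at stage 13. Its values were -1.03, -4.96, -1.36 and -0.38, and the fit gave -1.93 ± 0.54 (SE, adjusted p = 0.0142). No array was above 0, but replicate 2 was far below the other 3, and without it the adjusted p was 0.374. At no other mutant stage was gcm2 called. Among the nearest genes on each side of gcm, 5 on either side including gcm2, no other gene was called, and CG31709 was measured on too few arrays to be tested. Of these neighbours, Trx2 read -0.70, -1.57, -1.05 and -0.67 and did not pass (-1.0 ± 0.39 SE, adjusted p = 0.106).

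Over the whole array 2060 of 21469 tested probes were called, or 9.6%, with 1264 higher (5.89%) and 796 lower (3.71%) in the mutant. Among these, 658 were at least 2-fold higher and 529 at least 2-fold lower. Counted as named genes with 1 probe each, 1447 of 11107 were called, or 13%, with 863 higher (7.77%) and 584 lower (5.26%), and the median over all tested genes was -0.02. The sign was the same on every array that measured the gene for 1235 of the 1447. The split between directions depended on single arrays and on the centring. Without replicate 1 there were 596 higher and 632 lower probes, and without centring 975 higher and 50 lower.

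**Figure D1:**
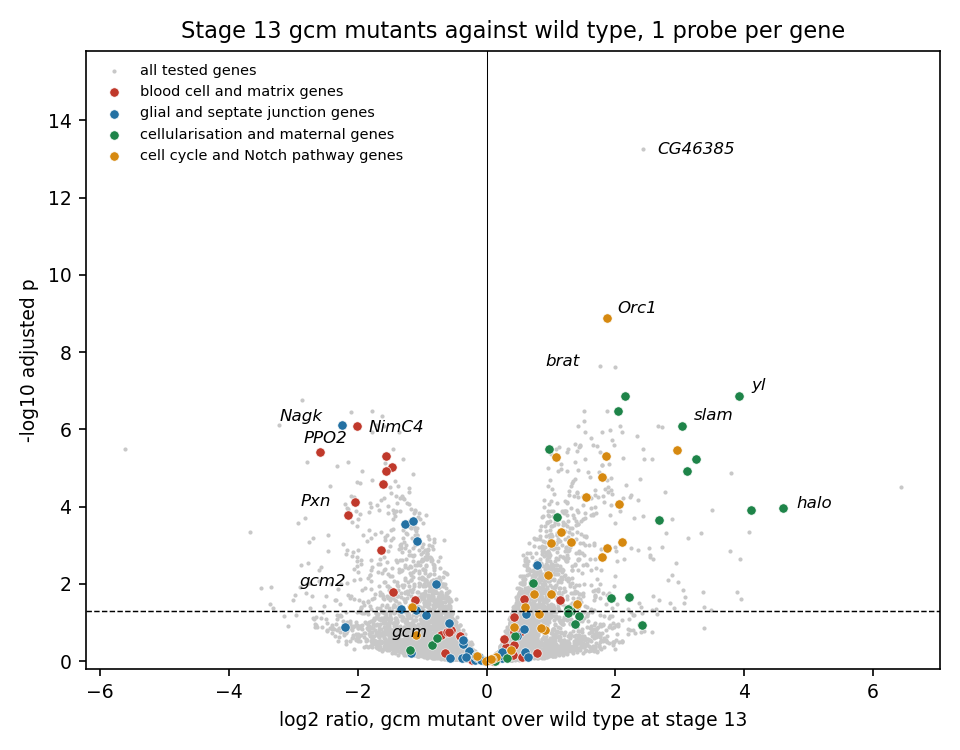
Each point is a gene, with the log2 ratio of mutant over wild type at stage 13 on the x axis and -log10 of the adjusted p on the y axis. The dashed line marks an adjusted p of 0.05. Among blood cell and matrix genes (red), the called crystal cell and matrix genes are lower. The plasmatocyte genes and blood regulators, also red, lie on both sides, with 2 called lower and 2 higher. Cellularisation, maternal, cell cycle and Notch pathway genes (green and orange) lie mostly among the higher genes.

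Of the genes for glial fate and function, few were called at stage 13. Among 6 tested glial regulators 1 was called higher and none lower, against 7.77% and 5.26% over all genes, and their median was 0.24. In whole embryos, fewer cells of a type and less RNA per cell cannot be told apart. The homeobox gene repo, the general marker of lateral glia, read 0.49, -0.24, 0.58 and 0.10 and did not pass (0.23 ± 0.20 SE, adjusted p = 0.593). Its arrays fell on both sides of 0. The same held for loco, a G-protein regulator of glia, at -0.12 ± 0.17 (SE, adjusted p = 0.789). The regulator called higher was retn, an ARID transcription factor of glia and neurons. It read 1.27, 0.69, 1.08 and 0.10, with a fitted 0.78 ± 0.18 (SE, adjusted p = 0.00319). All 4 arrays were above 0, replicate 4 only just, and without replicate 1 the adjusted p was 0.147.

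Among 13 tested genes of differentiated glia, 2 were called lower and none higher, against 5.26% and 7.77% over all genes, with a median of -0.31 that became 0.27 without centring. The lowest was Nagk, annotated as an N-acetylglucosamine kinase. Its arrays read -0.98, -2.03, -3.95 and -2.02, giving -2.25 ± 0.29 (SE, adjusted p = 7.82e-07), and every array was about 2-fold lower or more. This call was kept whichever array was left out. Tret1-1, a trehalose transporter of the glia that enclose the nervous system, read -0.85, -2.24, -1.7 and -0.55, with -1.33 ± 0.44 (SE, adjusted p = 0.0453). All its arrays were below 0, but the call was lost without replicate 1, 2 or 3 (adjusted p 0.0545, 0.216 and 0.240). The receptor moody, of the blood-brain barrier, spanned 1.74, -0.94, -0.75 and -0.37 and did not pass (-0.08 ± 0.28 SE, adjusted p = 0.930). Gs2, a glutamine synthetase, did not pass either, at 0.26 ± 0.24 (SE, adjusted p = 0.629).

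Septate junctions seal both epithelia and the glial sheath of the nervous system. Of 17 tested genes for their components 5 were called lower and none higher, against 5.26% lower over all genes. The list's median was -0.36, and it turned to 0.09 without centring, where none of the 5 passed. Boudin (bou), a Ly6 protein needed for junction assembly, read -0.85, -2.16, -0.85 and -1.19, with -1.26 ± 0.24 (SE, adjusted p = 0.000289). Its relative coiled (cold) read -1.24, -1.68, -0.95 and -0.67, with -1.14 ± 0.21 (SE, adjusted p = 0.000234). The claudin sinu read -1.04, -1.82, -1.25 and -0.21, with -1.08 ± 0.22 (SE, adjusted p = 0.000774). For these 3 genes all arrays were below 0 and the call did not depend on any single array. The scaffold gene vari (-1.09 ± 0.36 SE, adjusted p = 0.0462) and a second claudin, kune (-0.78 ± 0.21 SE, adjusted p = 0.00992), were also below 0 on every array, but both calls were lost without replicate 2 or without replicate 3 (adjusted p 0.106 to 0.382). Core components measured on the same arrays did not pass, among them Nrx-IV at -0.58 (adjusted p = 0.106) and cora at -0.94 (adjusted p = 0.0625).

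Of the 7 innexins tested, the genes for gap junction channels, 1 was called, against 13% of all genes. It was zpg, the innexin of the germ line, which was higher at 1.41 ± 0.42 (SE, adjusted p = 0.0239), and its call was lost without replicate 1, 2 or 3 (adjusted p 0.0793 to 0.115). Inx2 (0.15) and ogre (0.42), which glia use, did not pass.

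A few genes of blood cells were lower. Of 4 tested crystal cell genes, 2 were called lower and none higher, against 5.26% and 7.77% over all genes. PPO2, a prophenoloxidase that crystal cells store for melanisation, read -2.75, -2.84, -2.67 and -2.05 on the 4 arrays. The fit gave -2.58 ± 0.37 (SE, adjusted p = 3.82e-06), a 5.97-fold reduction, and every array lay below -2. PPO1, the second prophenoloxidase, read -2.09, -2.78, -2.21 and -1.53, with -2.15 ± 0.39 (SE, adjusted p = 0.000168). All 4 arrays were below -1.5, and both calls were kept under each array left out. The transcription factor lz, which sets crystal cell fate, did not pass, with a value of 0.52 ± 0.23 (SE, adjusted p = 0.179), and peb, a zinc-finger factor that acts with it, read 0.28 (adjusted p = 0.267). PPO1 and PPO2 are related in sequence, and cross-hybridisation between their probes was not tested.

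Among 18 tested plasmatocyte genes and blood regulators, 2 were called lower and 2 higher, not far from the 5.26% and 7.77% over all genes, with a median of 0.26. NimC4, also called simu, a receptor for engulfing dying cells, read -1.85, -2.56, -1.86 and -1.8, with -2.02 ± 0.26 (SE, adjusted p = 8.10e-07). Pxn, a peroxidase that macrophages secrete into the matrix, read -1.26, -2.5, -3.1 and -1.29, with -2.04 ± 0.35 (SE, adjusted p = 7.66e-05). Every array was below -1 for both genes, and both calls were kept under each array left out. The engulfment receptor crq was below 0 on 3 arrays and did not pass (-0.61 ± 0.27 SE, adjusted p = 0.171). Hml, hemolectin, scattered across -1.27, -1.35, 2.51 and 0.48, with no call (0.09 ± 0.87 SE, adjusted p = 0.974). The GATA factor srp, which specifies blood cell precursors, read 0.49, 0.01, 0.57 and 0.63 and did not pass (0.43 ± 0.15 SE, adjusted p = 0.0715). The 2 higher members were Jra, the fly Jun protein, at 1.14 ± 0.35 (SE, adjusted p = 0.0268), and Pvf3, a growth factor that guides macrophage migration, at 0.59 ± 0.18 (SE, adjusted p = 0.0242). Both were lost without replicate 1 (adjusted p 0.368 and 0.511), and Jra also without replicate 2 or 3 (adjusted p 0.115 and 0.164).

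The basement membrane of the embryo is laid down in large part by plasmatocytes. Of 13 tested genes for its components and the enzymes that modify them 7 were called lower and none higher, against 5.26% and 7.77% over all genes, and the median was -1.1, or -0.65 without centring, where none of the 7 passed. The collagen IV chain vkg read -1.62, -1.98, -1.98 and -0.95, with -1.63 ± 0.35 (SE, adjusted p = 0.00135). The other collagen IV chain, Col4a1, read -1.32, -1.97, -2.19 and -0.34, with -1.46 ± 0.41 (SE, adjusted p = 0.0162). All arrays were low for both chains, with replicate 4 the nearest to 0, and the call of Col4a1 was lost without replicate 1, 2 or 3 (adjusted p 0.0540 to 0.150). The enzymes that hydroxylate collagen moved the same way. Plod, a lysyl hydroxylase, read -1.65, -2.61, -1.68 and -0.49 (-1.61 ± 0.26 SE, adjusted p = 2.67e-05), and a second probe for it was also called lower at -1.87 (adjusted p = 0.000137). PH4alphaEFB, a prolyl 4-hydroxylase subunit, read -1.35, -2.18, -1.47 and -0.85, with -1.46 ± 0.22 (SE, adjusted p = 9.72e-06). Both were below 0 on all arrays and kept their call under each array left out.

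Matrix proteins that bind collagen were lower as well. SPARC read -1.09, -2.24, -1.6 and -1.3, with -1.56 ± 0.24 (SE, adjusted p = 1.20e-05). Papilin (Ppn) read -1.95, -2.1, -1.48 and -0.70, with -1.55 ± 0.22 (SE, adjusted p = 4.77e-06). Both were low on all arrays and held under each array left out. Tiggrin (Tig), an integrin ligand, read -1.65, -1.81, -1.44 and 0.48, with -1.1 ± 0.33 (SE, adjusted p = 0.0255). Replicate 4 was above 0 for Tig, and the call was lost without replicate 1, 2 or 3 (adjusted p 0.134 to 0.207). The laminin chains did not pass, with LanA at 0.30, LanB1 at -0.41 and LanB2 at -0.36.

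**Figure D2:**
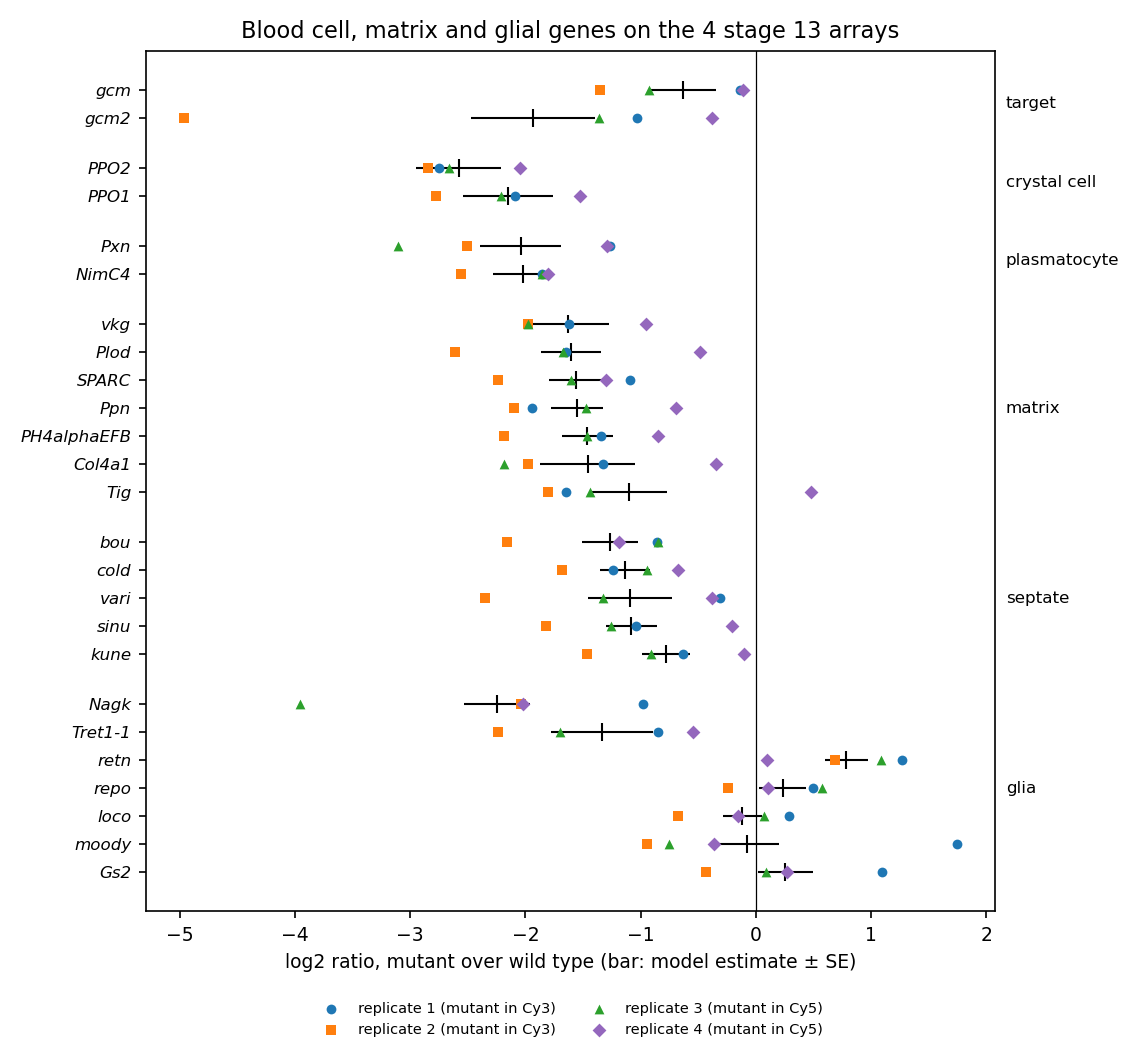
The log2 ratio of mutant over wild type is shown for each of the 4 arrays (coloured symbols), with the fitted value and its SE (black), for gcm, gcm2, the lower blood cell, matrix and septate junction genes, and 7 glial genes. PPO2 lies below -2 on every array, whereas repo, loco, moody and Gs2 scatter around 0. Without centring, the median fitted value over all probes would be 0.46 instead of -0.03. The points of replicates 1, 2 and 4 would lie higher and those of replicate 3 lower.

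Some genes of neural precursors were higher in the mutant. Of 23 tested neuroblast genes 9 were called higher and none lower, against 7.77% and 5.26% over all genes, with a median of 0.47. The proneural gene l(1)sc read 2.37, 1.33, 2.51 and 1.77, with 2.0 ± 0.43 (SE, adjusted p = 0.00109), and the proneural gene sc read 0.49, 1.49, 3.82 and 1.26, with 1.77 ± 0.47 (SE, adjusted p = 0.0100). Both were above 0 on all arrays, but sc was lost without replicate 3 (adjusted p 0.297). The gene brat, whose product is passed to the differentiating daughter of a dividing neuroblast and represses translation there, read 1.97, 1.52, 2.25 and 1.27, with 1.75 ± 0.19 (SE, adjusted p = 2.31e-08). The polarity gene baz (Par-3) read 0.82, 1.25, 1.43 and 1.03, with 1.13 ± 0.16 (SE, adjusted p = 2.83e-06). Both were above 0.8 on every array and held under each array left out.

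Several temporal factors of neuroblasts were among the called genes. Kr read 0.83, 0.86, 1.67 and 1.07, with 1.11 ± 0.24 (SE, adjusted p = 0.00117), and hb read 0.88, 0.62, 1.52 and 0.71, with 0.93 ± 0.21 (SE, adjusted p = 0.00180). Both were above 0.6 on every array. The smallest increases were wor at 0.60, svp at 0.47 and pdm2 at 0.45, with adjusted p from 0.0354 to 0.0493. The calls of svp and pdm2 were lost under each array left out in turn, wor was lost without replicate 1, 2 or 3 (adjusted p 0.0753 to 0.261), and the other probes for both genes, of either sign, did not pass, at 0.56, -0.63 and -0.60 for svp and at 0.40 and -0.42 for pdm2. The later factor cas read -0.80 (adjusted p = 0.0536). The neuroblast markers dpn (0.10) and ase (0.46) did not pass.

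Genes of differentiated neurons were called about as often as all genes. Of 16 tested 1 was higher and 1 lower, not far from the 7.77% and 5.26% over all genes, and their median was -0.06. Csp, a synaptic vesicle chaperone, was higher at 0.70 ± 0.18 (SE, adjusted p = 0.00864), and onecut, a homeobox factor of neurons, was lower at -0.97 ± 0.28 (SE, adjusted p = 0.0198). Csp was lost without replicate 1 or 3 (adjusted p 0.155 and 0.0641) and onecut without replicate 1, 2 or 3 (adjusted p 0.0506 to 0.244). The neuronal RNA-binding genes elav (0.16) and fne (-0.71) did not pass. Among 20 neuronal identity factors ems was higher (0.46) and exex lower (-0.68), against 7.77% and 5.26% over all genes. Both calls were lost with at least 2 of the arrays left out singly. None of the 6 midline and axon guidance genes was called, against 13% of all genes.

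The Notch pathway, through which neighbouring cells restrict each other's fate, held 15 tested genes, of which 8 were called higher and 1 lower, against 7.77% and 5.26% over all genes. Their median was 0.74. Targets of the pathway had the largest values. BobA, a Bearded-family gene, read 4.21, 2.4, 3.04 and 2.14, with 2.95 ± 0.42 (SE, adjusted p = 3.33e-06). Its relatives E(spl)m4-BFM and Brd read 2.47, 1.61, 2.84 and 1.51 and 2.3, 1.84, 2.59 and 1.48, with 2.11 ± 0.44 (SE, adjusted p = 0.000813) and 2.05 ± 0.36 (SE, adjusted p = 8.73e-05). All 3 were more than 2-fold higher on all arrays and held under each array left out. Cross-hybridisation among these related genes was not tested. Of the bHLH repressors of the E(spl) complex, E(spl)mdelta-HLH was higher on all arrays (1.31 ± 0.27 SE, adjusted p = 0.000830) and so was E(spl)m5-HLH (1.41 ± 0.44 SE, adjusted p = 0.0328), while E(spl)mbeta-HLH was lower (-1.16 ± 0.38 SE, adjusted p = 0.0399) and E(spl)m3-HLH (0.08) and E(spl)m7-HLH (0.00) did not pass. The call of E(spl)m5-HLH was lost without replicate 1, 2 or 3 (adjusted p 0.0836 to 0.187), and that of E(spl)mbeta-HLH without replicate 1, 2 or 4 (adjusted p 0.0776 to 0.219).

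Components that send or process the signal were called too. The protease gene kuz, which cleaves Notch, read 1.27, 0.87, 1.61 and 0.59, with 1.08 ± 0.16 (SE, adjusted p = 5.27e-06), and it held under each array left out. The ubiquitin ligase gene neur, which activates the ligand Delta, was higher at 0.74 ± 0.21 (SE, adjusted p = 0.0178), and H, a co-repressor that opposes Notch targets, at 0.60 ± 0.19 (SE, adjusted p = 0.0397). All their arrays were above 0. Neur was lost without replicate 1 or 3 (adjusted p 0.233 and 0.113), and H under each array left out (adjusted p 0.0733 to 0.161).

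Cell cycle genes were the list with the largest share of calls among lists of 10 or more tested genes. Of 15 tested 10 were higher and none lower, against 7.77% and 5.26% over all genes, and the median was 0.99. Orc1, the origin recognition subunit that licenses replication, read 2.21, 1.74, 2.21 and 1.34, with 1.87 ± 0.18 (SE, adjusted p = 1.28e-09), and was above 1.3 on every array. Cyclin B (CycB) read 2.28, 1.43, 2.74 and 0.73 and cyclin B3 (CycB3) read 2.43, 2.27, 2.18 and 0.54, with 1.79 ± 0.28 (SE, adjusted p = 1.68e-05) and 1.85 ± 0.27 (SE, adjusted p = 4.95e-06). For both cyclins replicate 4 was much nearer to 0 than the other 3. Cyclin E (CycE), which drives entry into S phase, read 4.02, 1.64, 0.51 and 1.3, with 1.87 ± 0.40 (SE, adjusted p = 0.00118). Its second probe was also called, at 1.5 (adjusted p = 8.7e-05), although the probe shown was lost without replicate 1 (adjusted p 0.118).

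The replication licensing factor dup (Cdt1) was higher at 1.54 ± 0.26 (SE, adjusted p = 5.78e-05). The helicase subunits Mcm6, Mcm3 and Mcm5 stood at 1.16, 0.99 and 0.99, the sliding clamp PCNA at 0.95 and the anaphase activator fzy (Cdc20) at 1.79, with adjusted p from 0.000448 to 0.0179. Every array was above 0 for all 10 genes. In all, 6 of the 10 held under each array left out, and Mcm5, PCNA and fzy were lost without replicate 1 (adjusted p 0.0827 to 0.152). Mcm5 and PCNA were also lost without replicate 3 (adjusted p 0.101 and 0.0773), and Mcm5 without replicate 2 (adjusted p 0.050). Among members that did not pass, Orc2 read -1.1 and fzr, an activator of cyclin destruction at cell cycle exit, read -0.15.

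The largest increases included genes whose transcripts belong to the blastoderm and to the egg, and 4 lists were drawn up for them after these values had been seen, so their counts describe the choice. Of 7 tested cellularisation genes 5 were higher and none lower, against 7.77% and 5.26% over all genes, with a median of 2.68. None of them could be tested when only probes whose repeat spots met the spread limit of the study's design text were kept. Their values thus rest on spots outside that limit. The gene halo, which directs lipid droplet transport in the cellularising embryo, read 3.42, 7.01, 4.31 and 3.69, with 4.61 ± 0.81 (SE, adjusted p = 0.000107), or 24.4-fold higher. The membrane growth gene slam read 5.17, 2.95, 3.11 and 0.88, with 3.03 ± 0.39 (SE, adjusted p = 8.10e-07). Sry-alpha, an actin regulator of cellularisation, read 2.97, 3.58, 4.65 and -0.48, with 2.68 ± 0.51 (SE, adjusted p = 0.000227), and its second probe was called at 3.28 (adjusted p = 4.57e-05). For halo and slam all arrays were above 0, whereas Sry-alpha was below 0 on replicate 4, and all 3 calls held under each array left out. SNCF read 4.95, 2.88 and 5.06 on replicates 1 to 3, with 4.11 ± 0.71 (SE, adjusted p = 0.000126), and replicate 4 did not measure it, so that no test was left without replicate 3. The gene bnk, bottleneck, was higher at 1.27 ± 0.42 (SE, adjusted p = 0.0436) and was lost without replicate 1, 2 or 3 (adjusted p 0.127 to 0.346). Not all genes of this class moved: nullo spanned 4.01, -0.39, -2.12 and -0.21 and did not pass (0.32 ± 0.50 SE, adjusted p = 0.810).

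Of 19 tested maternal and egg activation genes 10 were higher and none lower, against 7.77% and 5.26% over all genes, with a median of 1.38. Within the repeat-spot limit 8 could be tested, of which 5 were higher and 1 lower, with a median of 0.72. Calls were far more frequent within that limit, at 2519 of 5530 tested probes, with 1338 higher and 1181 lower. The oocyte receptor for yolk protein, yl, read 3.41, 4.92, 5.31 and 2.04, with 3.92 ± 0.44 (SE, adjusted p = 1.40e-07). BigH1, the linker histone of the early embryo, read 4.92, 2.51, 4.23 and 1.31, with 3.25 ± 0.47 (SE, adjusted p = 5.86e-06). Marf1, a regulator of oocyte transcripts, read 3.57, 3.37, 3.22 and 2.28, with 3.11 ± 0.48 (SE, adjusted p = 1.23e-05), and its second probe gave 3.14 (adjusted p = 1.28e-05). All 3 were above 1.3 on every array. The translational repressor smg (2.04 ± 0.25 SE, adjusted p = 3.42e-07) and swa, which anchors maternal mRNA (2.15 ± 0.25 SE, adjusted p = 1.40e-07), followed, with stau at 1.09 and the zygotic genome activator zld at 0.97. These 7 held under each array left out. The other 3 calls did not. The egg activation gene gnu (1.93) was lost without replicate 1, 2 or 3 (adjusted p 0.0578 to 0.201), the receptor Tl (0.72) without replicate 1 or 3 (adjusted p 0.0644 and 0.0704), and osk (2.2) without replicate 2, 3 or 4 (adjusted p 0.0596 to 0.203).

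Germ line genes partly overlapped with that list. Of 7 tested 4 were higher and none lower, against 7.77% and 5.26% over all genes, with a median of 2.2. Within the repeat-spot limit 3 could be tested, of which 1 was higher and 1 lower, with a median of 0.21. Of all 5530 probes tested within that limit, 1338 were higher and 1181 lower. SoYb and tej, both of the piRNA pathway that silences transposons, read 2.85, 3.61, 2.43 and 0.85 and 3.08, 2.7, 2.7 and 0.93, with 2.43 ± 0.45 (SE, adjusted p = 0.000175) and 2.35 ± 0.51 (SE, adjusted p = 0.00133). Each was above 0.8 on every array and held under each array left out. The pole plasm gene osk spanned 0.60, 4.52, 2.08 and 1.62. The pathway's central protein piwi was measured on replicates 2 to 4, at 2.08, 0.59 and 3.79 (2.37 ± 0.74 SE, adjusted p = 0.0320), was lost without replicate 4 (adjusted p 0.368) and could not be tested without replicate 2. The germ cell genes aub (0.31) and gcl (-0.31) did not pass, and vas, nos and pgc have no named probe. Among 12 gap and pair-rule genes 4 were higher and none lower, against 7.77% and 5.26% over all genes. The higher ones were Kr and hb again, prd at 1.39 and odd at 0.43, while eve (0.18), ftz (0.26) and kni (-0.06) did not pass. The call of prd was lost without replicate 3 (adjusted p 0.0509) and that of odd under each array left out (adjusted p 0.0670 to 0.195). Within the repeat-spot limit 8 of the 12 gap and pair-rule genes could be tested. Of these 3 were higher and none lower, against the same 1338 and 1181 of 5530 probes. Whether younger embryos or unfertilised eggs were present among the sorted mutants, and whether mutants and wild type were of the same age within stage 13, was not tested.

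**Figure D3:**
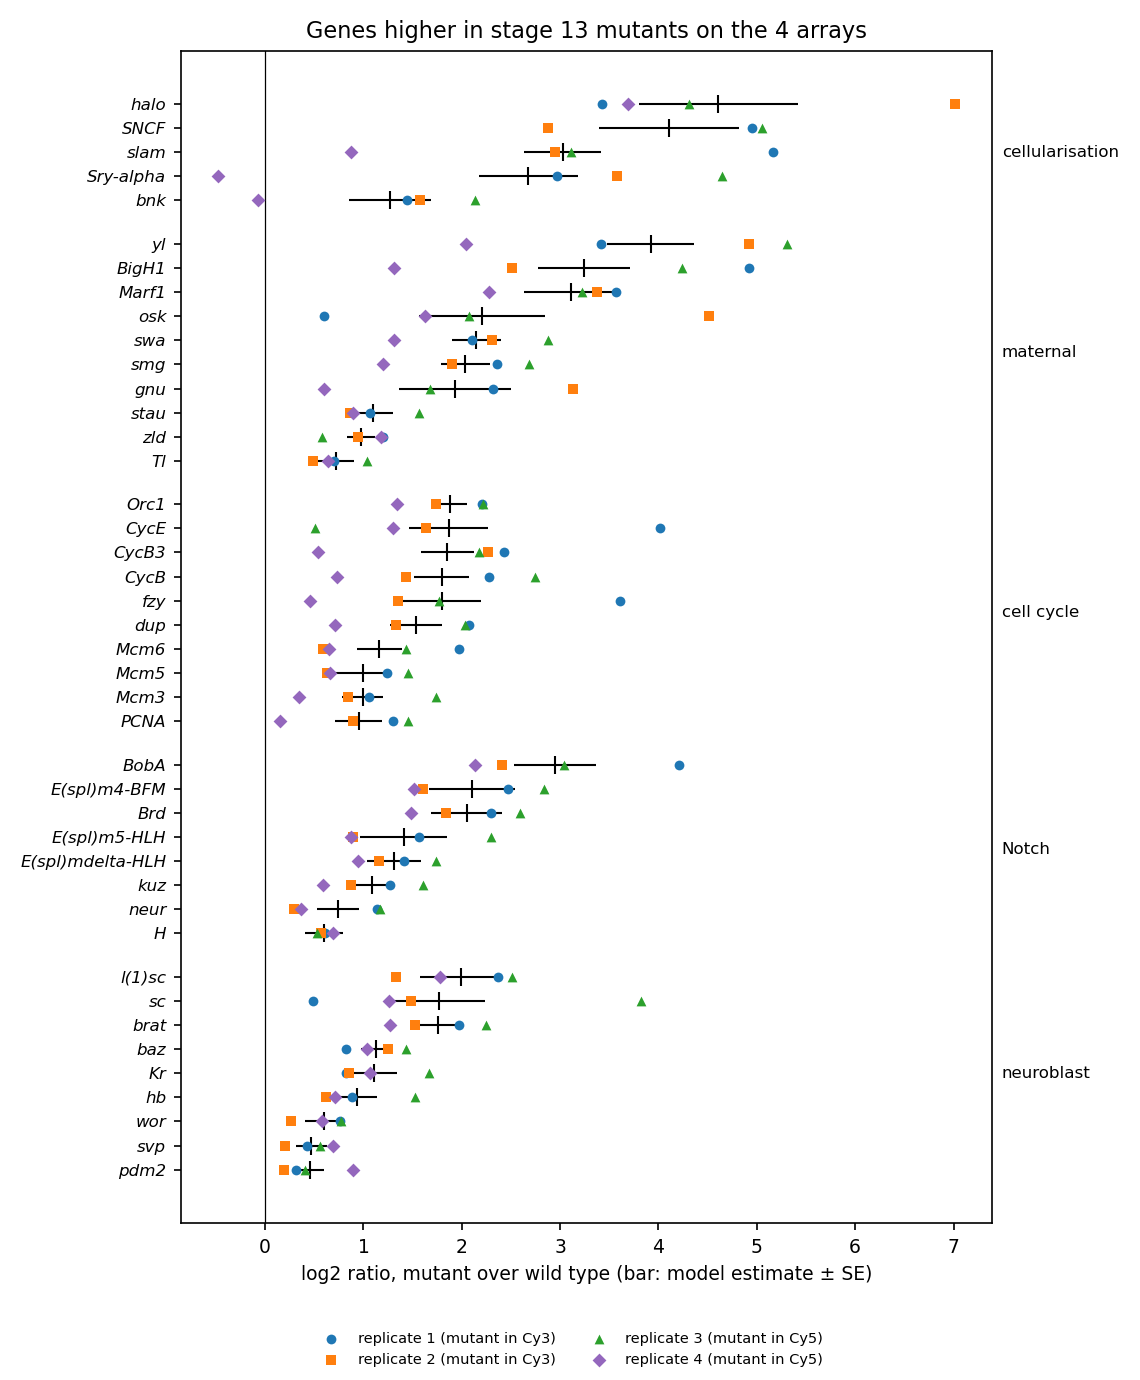
The log2 ratio on each of the 4 arrays (coloured symbols) and the fitted value with its SE (black) are shown for the called cellularisation, maternal, cell cycle, Notch pathway and neuroblast genes that were higher. Replicate 4 is often the array nearest to 0, and it lies below 0 for Sry-alpha and bnk.

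The largest value on the arrays belonged to spo, a cytochrome P450 of ecdysone synthesis. It read 6.31, 4.49 and 8.06 on replicates 2, 3 and 4, was not measured on replicate 1, and gave 6.43 ± 1.03 (SE, adjusted p = 3.16e-05). Without replicate 2 it could not be tested. The next enzymes of the pathway to be called were dib, also a P450, at 1.78, 2.86, 4.1 and 1.43 (2.54 ± 0.56 SE, adjusted p = 0.00182), and sro, a dehydrogenase, at 0.47, 1.21, 1.06 and 5.05 (1.95 ± 0.63 SE, adjusted p = 0.0425). Every array was above 0 for all 3, but dib was lost without replicate 3 (adjusted p 0.0516) and sro without replicate 1, 2 or 4 (adjusted p 0.0583 to 0.399). A second probe for sro gave -0.32 and did not pass. The enzymes sad (0.79) and shd (-1.45) did not pass. Within the repeat-spot limit none of the listed enzymes of ecdysone synthesis could be tested. Over the broader ecdysone list 15 genes were tested, 3 were higher and 1 lower, against 7.77% and 5.26% over all genes. The third higher gene was the nuclear receptor Hr3 (0.52), with a second probe at -1.24 that did not pass, and the lower gene was Kr-h1 (-0.83), a zinc-finger factor of hormone signalling. Hr3 was lost under each array left out (adjusted p 0.0629 to 0.237) and Kr-h1 without replicate 1, 2 or 3 (adjusted p 0.0600 to 0.0777). Responders such as EcR (0.46) and ftz-f1 (0.08) did not pass.

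Several structural genes of later development were lower, with less support from single arrays. Of 13 tested muscle genes 3 were lower and 1 higher, against 5.26% and 7.77% over all genes, with a median of -0.55. Without centring the median was -0.10 and none of the 13 was called. The visceral mesoderm factor bap read -1.17, -1.99, -2.9 and -0.06, with -1.53 ± 0.33 (SE, adjusted p = 0.00138), and was lost without replicate 3 (adjusted p 0.0652). Tropomyosin 2 (Tm2) stood at -1.17 ± 0.34 (SE, adjusted p = 0.0206) and the troponin T gene up at -1.02 ± 0.31 (SE, adjusted p = 0.0245). Both were lost without replicate 1, 2 or 3 (adjusted p 0.0559 to 0.238), and replicate 4 was at or above -0.06 for both. The mesoderm factor twi, which acts earlier, was higher at 0.55 ± 0.14 (SE, adjusted p = 0.00641) and was lost without replicate 3 (adjusted p 0.0523).

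Of 16 tested cuticle genes 2 were lower and 1 higher, against 5.26% and 7.77% over all genes. Their median of -0.43 became 0.02 without centring. The chitin-binding gene Gasp read -1.49, -3.51, -3.15 and 0.25, with -1.98 ± 0.60 (SE, adjusted p = 0.0268), and the chitin deacetylase gene serp, which is also on the tracheal list, -1.05 ± 0.32 (SE, adjusted p = 0.0282). The apical matrix gene dpy was higher at 1.21 ± 0.33 (SE, adjusted p = 0.0126), with a second probe of opposite sign that did not pass. Gasp and serp were lost without replicate 1, 2 or 3 (adjusted p 0.0695 to 0.263) and dpy without replicate 1 (adjusted p 0.311). None of 9 tendon cell genes, 3 apoptosis genes or 6 antimicrobial peptide genes was called, against 13% of all genes. The amnioserosa and yolk list had 1 lower gene of 8, against 5.26% over all genes. This was Ance, an angiotensin-converting enzyme homologue, at -1.11, -1.84, -1.04 and -0.56 (-1.14 ± 0.18 SE, adjusted p = 1.41e-05). Its call held under each array left out but was lost without centring (adjusted p 0.332).

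In the other lists 1 or 2 genes were called, against 7.77% higher and 5.26% lower over all genes. The digestive maltase gene Mal-A1 read 1.58, 2.75, 3.69 and 2.87, with 2.72 ± 0.57 (SE, adjusted p = 0.00112), the only call among 13 fat body and gut genes, and it held under each array left out. The heat shock gene Hsp26 was higher at 1.35 ± 0.42 (SE, adjusted p = 0.0323), 1 of 4 tested, and was lost without replicate 1, 2 or 3 (adjusted p 0.120 to 0.343). Of 4 tested Hox genes Antp (0.53) and Scr (0.43) were higher, and both were lost without replicate 1 (adjusted p 0.0882 and 0.206). Scr was also lost with each of the other arrays left out (adjusted p 0.0563 to 0.0939). Of 32 ribosomal protein genes 1 was lower, RpL36A (-0.71), which was lost under each array left out (adjusted p 0.0665 to 0.221), and their median was -0.17.

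Some of the largest changes lay outside these lists. Besides spo, halo, SNCF and yl, the 15 highest named genes with 1 sign on all arrays included Smvt, a multivitamin transporter, at 2.68, 3.81, 4.12 and 3.37 (3.5 ± 0.63 SE, adjusted p = 0.000125). They also included AOX3, an aldehyde oxidase, at 3.8, and Muc68D, a mucin, at 3.93. The remaining 8 were Nepl7, CG34025, CG40449, CG6209, CG15020, CG15820, CG34033 and CG44836, with values from 3.32 to 4.1. Of the 15, 9 were measured on 3 arrays, and arrays scattered widely, as for CG15020, at 1.04, 8.62 and 1.23 on replicates 2 to 4. The call of CG15020 was lost without replicate 1 or 3 (adjusted p 0.0691 and 0.718). CG15820 was lost without replicate 1 or 2 (adjusted p 0.104 and 0.216) and CG40449 without replicate 3 or 4 (adjusted p 0.0801 and 0.0929). CG34025 was lost without replicate 4, CG34033 without replicate 2 and CG6209 without replicate 3 (adjusted p 0.0998, 0.0721 and 0.0596). A second probe for CG40449 gave 1.7 and did not pass (adjusted p = 0.311).

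The 15 lowest genes began with CG6902, at -7.35, -2.36, -6.78 and -5.96 (-5.61 ± 0.75 SE, adjusted p = 3.16e-06). All 4 arrays were more than 2 below 0. The gene pr (purple), which encodes an enzyme of pteridine eye pigment synthesis and lies on the left arm of chromosome 2, read -3.17, -2.33 and -3.91 on replicates 1, 2 and 4 (-3.23 ± 0.41 SE, adjusted p = 7.82e-07). Rab9, a small GTPase of endosome traffic on the same arm, read -2.64, -2.6, -2.55 and -3.35 (-2.78 ± 0.40 SE, adjusted p = 6.99e-06). CG8112 read -2.78, -3.52, -3.63 and -1.53 (-2.87 ± 0.33 SE, adjusted p = 1.70e-07). These genes were low on each array that measured them. The other 11 were Tsp42Ed, Jhbp16, CG18530, CG43328, CG13202, Cyp9f2, CG31300, Ldsdh1, Trmt112, Ir40a and Spn42De, at -2.77 to -3.66. Among them Cyp9f2, a cytochrome P450, CG31300 and Ldsdh1 held under each array left out, and CG31300 was lost without centring (adjusted p 0.0602).

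The comparison with the other mutant stages asked which of these changes differed at stage 13. All 6 stages share the fit but no arrays. Of the 1447 genes called at stage 13, 811 were also called at 1 or more other mutant stages and 636 at none, and 24 were called at all 6. A gene that was not tested at a stage counts as not called there. The share of all tested genes that were called at another stage was not counted, so these numbers have no background to be read against. In number of called probes, stage 13 had the most of the 6 stages with all its arrays, but not without replicate 1 (1228), 2 (1433) or 3 (1229). There were 1272 at stage 10 (5.41% of those tested), 1650 at stage 11 (8.67%), 1490 at stage 12 (7.32%), 570 at stage 14 (2.55%) and 779 at stage 16 (3.58%).

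The genes called at all 6 stages, which were singled out after their values were seen, included blood and matrix genes from the lists. NimC4 read -1.33, -2.04, -1.48, -2.02, -1.85 and -1.62 from stage 10 to stage 16. Pxn read -1.9, -2.08, -1.17, -2.04, -1.38 and -1.7, and PH4alphaEFB -0.90, -2.24, -0.89, -1.46, -1.19 and -1.13. All were lower throughout, as were Nagk, pr, Ance, fabp, a fatty acid binding protein, and HLH54F, a bHLH factor of the caudal visceral mesoderm. PPO2 was near this pattern, with -2.16, -2.63, -0.79, -2.58, -2.49 and -2.73, of which stage 12 did not pass (adjusted p = 0.216). On the higher side, yl read 3.08, 4.13, 3.35, 3.92, 3.28 and 2.42, and GstD9, a glutathione transferase, 1.56 to 0.95 at the first and last stages and 1.87 at stage 13. Bhmt was called at all 6 stages with a change of sign, from -1.93 at stage 10 to 2.11 at stage 13.

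The difference itself was tested as stage 13 minus the mean of the other 5 mutant stages. Of 15025 testable probes 517 were called, or 3.44%, with 381 higher (2.54%) and 136 lower (0.905%) at stage 13. Counted as named genes, 378 of 9018 were called, or 4.19%, with 3.09% higher and 1.1% lower. The probe count depended strongly on single arrays, with 125 without replicate 1 and 943 without replicate 4. The lower blood cell genes did not pass in this test, and of 18 plasmatocyte genes and blood regulators Jra was called, higher at stage 13. For PPO2 the difference was -0.42 ± 0.40 (SE, adjusted p = 0.685), for NimC4 -0.35 ± 0.28 (SE, adjusted p = 0.599) and for Pxn -0.39 ± 0.39 (SE, adjusted p = 0.692). Matrix genes were in part lower at stage 13 than at the other stages: SPARC by -1.23 ± 0.26 (SE, adjusted p = 0.00489) and vkg by -1.37 ± 0.39 (SE, adjusted p = 0.0377), 2 of 13 tested members.

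Cellularisation genes were higher at stage 13 than at the other mutant stages for 3 of 7 testable members. Their list was drawn up after the stage 13 values were seen, so this count describes that choice. The difference was 3.56 ± 0.77 (SE, adjusted p = 0.00669) for SNCF, 3.38 ± 0.89 (SE, adjusted p = 0.0247) for halo and 2.94 ± 0.55 (SE, adjusted p = 0.00156) for Sry-alpha. They were not all near 0 at the other stages. SNCF read 2.48, 0.03, -2.96, 2.22 and 0.98 at stages 10, 11, 12, 14 and 16, and was called higher at stages 10 and 14 and lower at stage 12. In the same order halo read 1.64, 2.63, -0.07, 2.13 and -0.21, with a call at stage 11 (adjusted p = 0.0370), and Sry-alpha read -0.32, -0.17, -1.26, 0.75 and -0.28, with none. Cell cycle genes were higher at stage 13 for 7 of 15 members, among them dup by 1.4 ± 0.29 (SE, adjusted p = 0.00346) and Mcm6 by 1.26 ± 0.25 (SE, adjusted p = 0.00285). Notch pathway genes were higher for 5 of 15, with E(spl)m4-BFM at 2.36 ± 0.48 (SE, adjusted p = 0.00346) and BobA at 2.2 ± 0.46 (SE, adjusted p = 0.00426). Of the neuroblast genes 3 of 22 were higher, baz by 0.85 ± 0.17 (SE, adjusted p = 0.00346), brat by 0.95 ± 0.21 (SE, adjusted p = 0.00548) and l(1)sc by 1.75 ± 0.47 (SE, adjusted p = 0.0249).

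Muscle genes differed in the opposite direction, with 4 of 11 testable members lower at stage 13 than at the other mutant stages. For bap the difference was -1.52 ± 0.36 (SE, adjusted p = 0.0123), for Tm2 -1.37 ± 0.37 (SE, adjusted p = 0.0304) and for up -1.31 ± 0.33 (SE, adjusted p = 0.0191). The fourth, the myosin light chain gene Mlc2, differed by -1.72 ± 0.49 (SE, adjusted p = 0.0388), although it was not called against wild type at stage 13 (-0.95 ± 0.44 SE, adjusted p = 0.191). Gs2 was the member of the differentiated glial list that differed, higher by 0.98 ± 0.26 (SE, adjusted p = 0.0248). The gene with the largest positive difference was CG31131 (3.83 ± 0.88 SE, adjusted p = 0.0103), which was below 0 on replicate 4, followed by SNCF and halo. Inos, an enzyme of inositol synthesis, differed by 2.64 ± 0.51 (SE, adjusted p = 0.00221), with -2.12 at stage 10 and 2.24 at stage 13, and Nup133, a nuclear pore subunit, by 2.57 ± 0.59 (SE, adjusted p = 0.00949). At the low end stood CG32224 (-3.38), Ir40a (-3.35), jhamt, a juvenile hormone synthesis enzyme (-3.08 ± 0.79 SE, adjusted p = 0.0229), and Msp300, a nuclear envelope protein of muscle (-2.95). Msp300 spanned -6.7, -1.26, -0.44 and 1.06 on the 4 arrays and was not called against wild type. CG32224 read -0.73, 1.11 and -6.91 on replicates 1, 2 and 4 and was not called either (adjusted p = 0.0791).

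**Figure D4:**
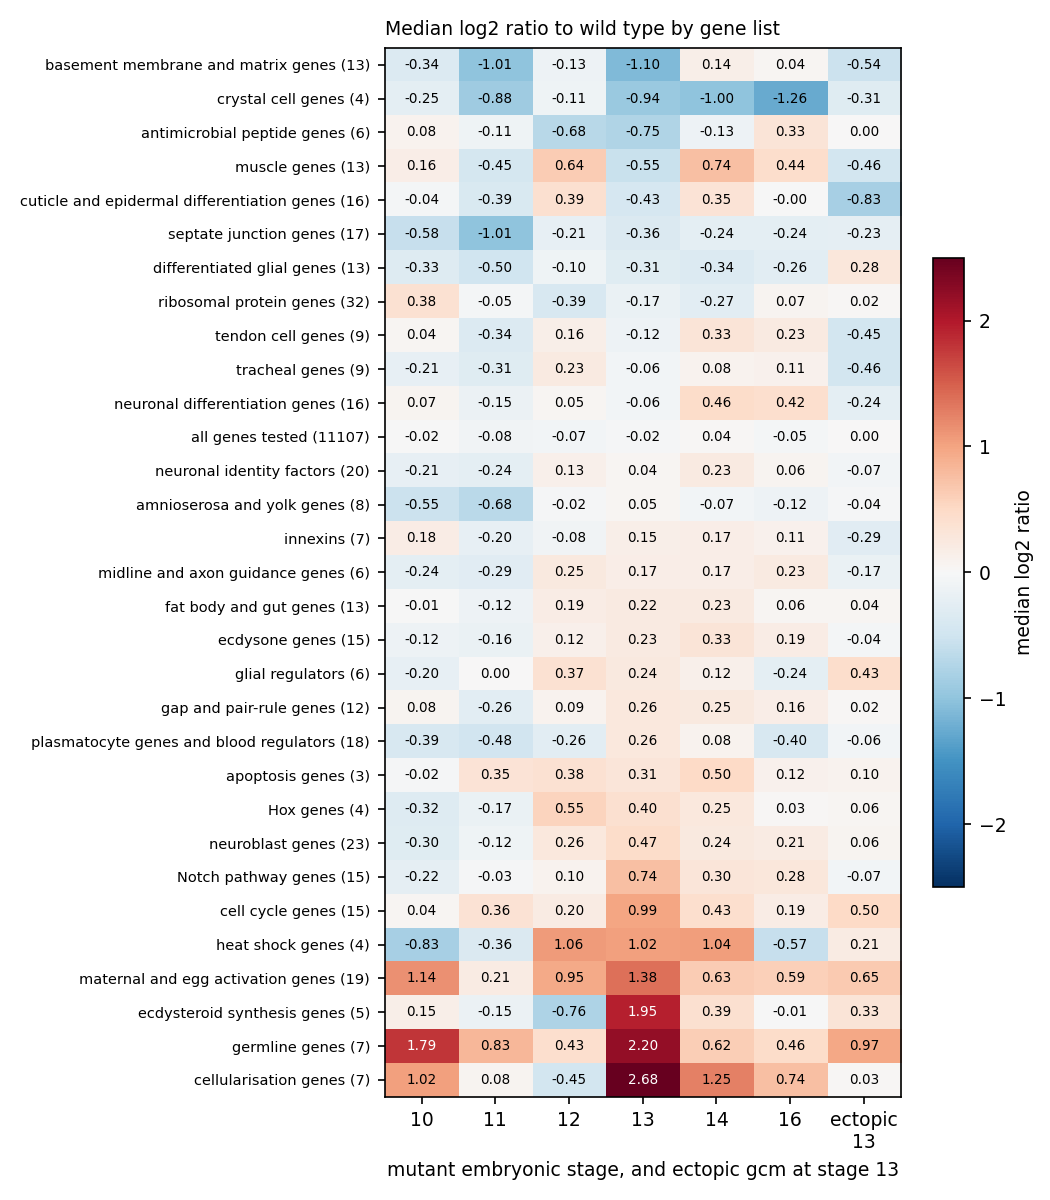
Rows are gene lists with the number of genes tested at stage 13, columns are the mutant stages and ectopic gcm at stage 13, and each cell is the median log2 ratio to wild type. The stage 13 column holds the highest medians for cellularisation (2.68), germline (2.2), cell cycle (0.99), Notch pathway (0.74) and neuroblast (0.47) genes, and a median of -1.1 for matrix genes. The cellularisation, maternal, gap and pair-rule and ecdysteroid lists were chosen after the stage 13 values were seen, so their stage 13 medians describe that choice. Within the repeat-spot limit of the design text no cellularisation or ecdysteroid gene could be tested, and the germline median was 0.21. Without centring, the stage 13 medians of the septate junction, differentiated glial and cuticle lists turn positive. So do those of the neuronal differentiation, tracheal, tendon cell and ribosomal protein lists.

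The medians by stage show the same groups. Cell cycle genes had medians of 0.04, 0.36, 0.20, 0.99, 0.43 and 0.19 from stage 10 to stage 16. Matrix genes had -0.34, -1.01, -0.13, -1.1, 0.14 and 0.04, low at stages 11 and 13 and near 0 at the last stages. Germ line genes had 1.79, 0.83, 0.43, 2.2, 0.62 and 0.46, so that stage 10 was close to stage 13. Of 6 testable germ line genes 0 were called in stage 13 minus the other mutant stages. The list medians themselves were not tested between stages.

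**Figure D5:**
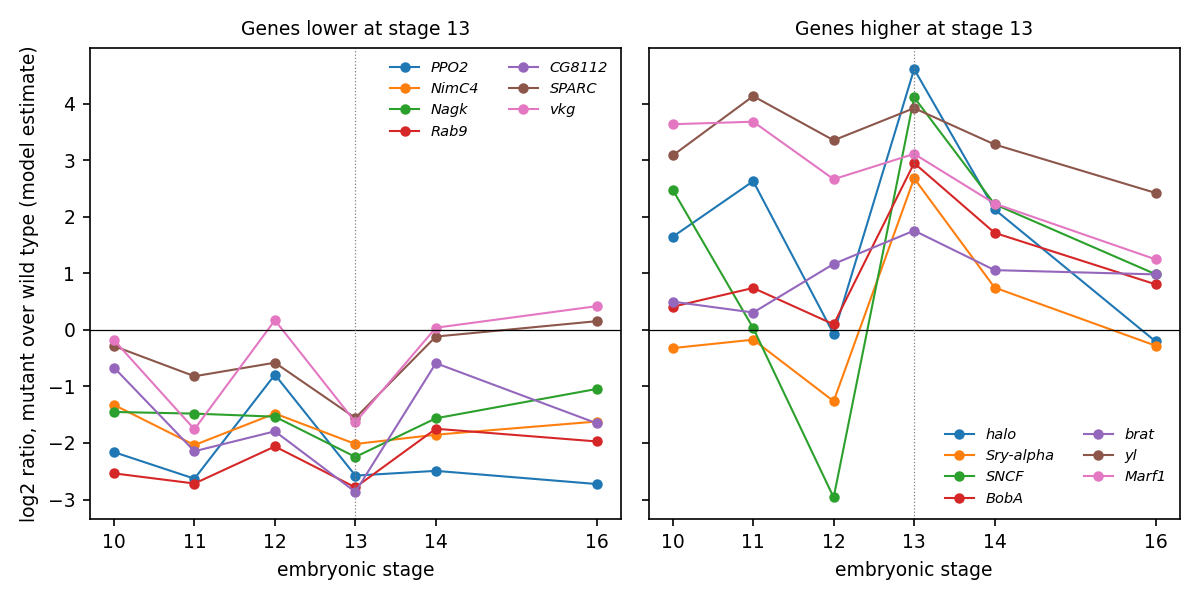
Fitted log2 ratios of mutant over wild type are plotted against embryonic stage for 7 genes lower and 7 genes higher at stage 13 (dotted line). Rab9, NimC4 and Nagk stay below -1 at all 6 stages, while Sry-alpha and SNCF are above 2 at stage 13 and below -1 at stage 12.

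The second comparison set the mutant against ectopic gcm at the same stage. The wild types of the 2 experiments differ, so a difference may also come from the strains, and the strain and the gcm state cannot be told apart. Of 20581 testable probes 221 were called, or 1.07%, with 149 higher (0.724%) and 72 lower (0.35%) in the mutant. Counted as named genes, 122 of 10851 were called, or 1.12%, with 0.636% higher and 0.488% lower. The gcm probe differed by -2.48 ± 0.41 (SE, adjusted p = 0.000462), with 1.85 under ectopic expression and -0.63 in the mutant.

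Of the glial and blood lists 2 genes were lower in the mutant than under ectopic gcm. Nagk was at 1.16 under ectopic gcm and at -2.25 in the mutant, a difference of -3.41 ± 0.41 (SE, adjusted p = 2.50e-06). It was the only called member of the 13 differentiated glial genes, and none of the 6 glial regulators was called. NimC4 was at -0.20 under ectopic gcm, and the difference was -1.82 ± 0.37 (SE, adjusted p = 0.00500), the only call among 18 plasmatocyte genes and blood regulators. Pxn did not pass (-1.67 ± 0.50 SE, adjusted p = 0.0906), and none of the 4 crystal cell genes did. For PPO2 the difference was -1.86 ± 0.52 (SE, adjusted p = 0.0639), which did not pass. The genes pr (-3.56 ± 0.54 SE, adjusted p = 0.000158), Rab9 (-3.1 ± 0.56 SE, adjusted p = 0.00206) and CG8112 (-2.89 ± 0.47 SE, adjusted p = 0.000462) were near 0 under ectopic gcm, at 0.33, 0.32 and 0.02. CG6902 had the most negative difference, at -5.57 ± 1.14 (SE, adjusted p = 0.00914).

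Among the genes higher in the mutant, halo had -0.73 under ectopic gcm and differed by 5.34 ± 1.14 (SE, adjusted p = 0.0112), and SNCF had 0.05 and differed by 4.06 ± 0.94 (SE, adjusted p = 0.0245). CG43693 read 2.83, 2.5, 3.11 and 2.19 on the mutant arrays and -0.82 under ectopic gcm, with 3.48 ± 0.49 (SE, adjusted p = 3.42e-05). The maternal gene yl was above 0 in both, at 1.01 under ectopic gcm, and differed by 2.91 ± 0.63 (SE, adjusted p = 0.0119). In the neural lists brat (1.23 ± 0.27 SE, adjusted p = 0.0114), baz (0.92 ± 0.23 SE, adjusted p = 0.0291) and Kr (1.29 ± 0.34 SE, adjusted p = 0.0411) were higher in the mutant, 3 of 23 neuroblast genes, and BobA (2.53 ± 0.59 SE, adjusted p = 0.0216) was the only called gene of 15 in the Notch pathway. None of the 15 cell cycle genes passed, and their median was 0.50 under ectopic gcm. Matrix and septate junction genes also gave no call, with ectopic medians of -0.54 and -0.23.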

How the data were processed

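Whole embryos were hybridised as mutant or ectopic against wild type on 2-colour arrays. Per the series' design text, slides were scanned with the ScanArray software 3.1 and quantified with GenePix 5.0, and arrays were kept on the agreement of repeat spots. The deposited values were taken as the authors' log2 ratio of Cy5 over Cy3 per spot. The log base was inferred from the values, and no background correction or normalisation is stated. There is no intensity or depth. Each stage 13 value rests on at most 4 arrays, and its SE on the spread within groups over all 58.

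Here, exact zeros and sizes of 9 or more were treated as missing, duplicate spots were replaced by their mean, each array's median was subtracted, and signs were turned to mutant over wild type by the dye labels. A probe was tested with 3 or more stage 13 arrays and both dye orientations. Least squares per probe over 58 arrays, with 14 groups and 1 dye term per experiment, gave variances that limma 3.58.1 moderated in R 4.3.3, with two-sided tests and Benjamini-Hochberg adjustment over all probes tested in a comparison. Code was tested on simulated data. Replicate numbers did not pair the arrays: same-numbered arrays of 2 groups had a median correlation of deviations of 0.00539. Of the probes, 13455 carry 1 gene symbol, 153 several and 10200 none, and 12851 were renamed through the RefSeq annotation. For a gene with several probes, the one measured on most arrays was used.

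Named were gcm, gcm2, the 15 highest and 15 lowest called genes with 1 sign on all arrays, every called member of a gene list with uncalled members as examples, the 8 extremes each way of both differences, and the 5 genes on each side of gcm. The members and lists were chosen with earlier results of these data known, and the cellularisation, gap and pair-rule, maternal and ecdysteroid lists after these values were seen.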

Additional observations from a re-analysis of the deposited data

Results flagged for a closer look

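Among the 154 genes of the text measured on all 4 arrays, 8 had 1 array far from the other 3, a gap to the nearest that passed Dixon's critical value for 4 samples. Chance flags about 1 in 20 groups of 4. CG31300 read -0.38 on replicate 4 against -3.94 to -3.54 on the others. CycB3 read 0.54 on replicate 4 against 2.18 to 2.43 on the others. NimC4 read -2.56 on replicate 2 against -1.86 to -1.8 on the others. Orc2 read -5.54 on replicate 3 against -0.08 to 0.70 on the others. Rab9 read -3.35 on replicate 4 against -2.64 to -2.55 on the others. Tig read 0.48 on replicate 4 against -1.81 to -1.44 on the others. kni read -1.03 on replicate 2 against 0.17 to 0.31 on the others. sro read 5.05 on replicate 4 against 0.47 to 1.21 on the others. Of these arrays 5 were replicate 4.

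For 49 genes of the text the log2 ratio at stage 13 differed from the mean of the other 5 mutant stages by the test of that difference. The largest positive differences were CG31131 at 3.83, SNCF at 3.56, halo at 3.38, CG30386 at 2.94, Sry-alpha at 2.94, Inos at 2.64 and Smvt at 2.6. Next came Nup133 at 2.57, dib at 2.55, E(spl)m4-BFM at 2.36, BobA at 2.2, AOX3 at 2.19, CG43693 at 2.15 and Bhmt at 2.04. Then followed l(1)sc at 1.75, Hsp26 at 1.62, Jra at 1.62, E(spl)mdelta-HLH at 1.54, Brd at 1.43, dup at 1.4 and Mcm6 at 1.26. Further positive differences were CycB3 at 1.22, CycB at 1.21, Gs2 at 0.98, stau at 0.97, brat at 0.95, PCNA at 0.95 and Mcm3 at 0.94. Smaller ones were kuz at 0.89, baz at 0.85, Csp at 0.83, Orc1 at 0.83 and zld at 0.63. The largest negative differences were CG32224 at -3.38, Ir40a at -3.35, jhamt at -3.08, Msp300 at -2.95, CG31300 at -2.64, Mal-A3 at -2.57 and Kpc1 at -2.56. Below these in size came CG5335 at -2.48, Gasp at -2.32, Mlc2 at -1.72, bap at -1.52, CG8112 at -1.5, vkg at -1.37 and Tm2 at -1.37. Further negative differences were up at -1.31 and SPARC at -1.23. The adjusted p of these differences lay between 0.000358 and 0.0488, and no explanation was tested. Some rest largely on 1 array. CG32224 read -0.73, 1.11 and -6.91 on replicates 1, 2 and 4, and Mal-A3 read -0.87, 0.75, -6.71 and -0.05. Kpc1 read -0.425, -7.42 and -0.165 on replicates 2 to 4. CG32224 and Mal-A3 were not called against wild type at stage 13 (adjusted p 0.0791 and 0.0766).

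For 28 genes the mutant differed from ectopic gcm at stage 13, with different wild types in the 2 experiments. The largest positive differences were spo at 5.54, halo at 5.34, CG6209 at 4.69, CG14120 at 4.47, SNCF at 4.06, CG30386 at 3.7 and Tim17a2 at 3.63. Next came CG43693 at 3.48, yl at 2.91, BobA at 2.53, zpg at 2.39, dpy at 1.85, GstD9 at 1.85 and Bhmt at 1.67. Then followed Kr at 1.29, brat at 1.23, baz at 0.92 and zld at 0.73. The largest negative differences were CG6902 at -5.57, pr at -3.56, Nagk at -3.41, Vha36-2 at -3.37, CG7498 at -3.28, Rab9 at -3.1 and CG33635 at -2.94. Below these in size came CG8112 at -2.89, gcm at -2.48 and NimC4 at -1.82. Their adjusted p lay between 2.50e-06 and 0.0486.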

How the results depend on the processing

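The 2060 probes called against wild type became 1025 without centring, of which 95.1% were higher against 61.4% with it, 1059 with arrays scaled to 1 spread and 837 with the mutant arrays only. The 4 arrays alone gave 0 by limma, with 1841 at an unadjusted p under 0.05. Leaving out 1 array gave 1228 to 2273. For stage 13 minus the other mutant stages, 517 became 63 without centring, 101 with scaling, 344 without the dye term, 256 with zeros kept and 48 with the mutant arrays only, and 125 to 943 with 1 array left out. For mutant minus ectopic, 221 became 28 without centring, 28 with scaling, 125 with zeros kept and 1017 with only probes whose repeat spots met the spread limit of the design text, and 134 to 307 with 1 array left out. With replicate number as a block over the mutant arrays the counts were 596 and 2, but the numbers do not pair the arrays. The cause of these shifts was not tested, other than that fewer arrays enter some fits. No named gene changed sign while called. Of the 1447 called genes 451 were called in all 4 fits without 1 array and 53 in none, where a probe needed 2 arrays and both dyes.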

Other observations

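The shares of called genes were also counted by chromosome arm. Of the tested genes on the left arm of chromosome 2, which carries gcm, 7.44% were lower in stage 13 mutants, against 6.39% on the right arm, 4.98% and 4.41% on the left and right arms of chromosome 3 and 4.15% on the X. The shares of higher genes ran from 7.0% on the right arm of chromosome 2 to 8.59% on the X, and on chromosome 4 none of 55 tested genes was higher and 2 were lower. These shares are descriptions without a test.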
